A study of Mus musculus with 32 samples.

Results

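The 8 genes described here encode the mineralocorticoid receptor (Nr3c2), the enzyme that guards it from glucocorticoids (Hsd11b2), the aldosterone-induced kinase Sgk1, the alpha, beta and gamma subunits of the epithelial sodium channel (Scnn1a, Scnn1b and Scnn1g), and a beta subunit and a regulator of the sodium pump (Atp1b1 and Fxyd4). They were chosen by name, and all 8 were found among the 54532 genes of the deposited count table, with every member passing the filter on low counts in every comparison. The study followed acute kidney injury after the platinum drug cisplatin in wild-type (wt) C57bl/6 mice of both sexes. Each library holds the kidney RNA of 1 mouse at Day 0 or on Day 2, 3 or 5 following one intraperitoneal dose of 20 mg/kg. Every combination of sex and time has 4 mice, which gives 8 groups and 32 libraries. The 4 mice of a group are biological replicates by the study's methods, and p-values measure the spread among them. The mice were bought at 6 to 8 weeks of age and carried no transgene or deletion. Day 0 served as the baseline of each sex, although the treatment label of the Day 0 females reads cisplatin and that of the Day 0 males reads NA.

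In the connecting tubule and collecting duct, aldosterone binds the mineralocorticoid receptor in the principal cells and raises the reabsorption of sodium. Sodium enters through the channel in the apical membrane and is pumped out across the basolateral membrane by the sodium-potassium ATPase. Cortisol and corticosterone bind the same receptor, and 11-beta-hydroxysteroid dehydrogenase type 2 inactivates them in these cells, while Sgk1, which both mineralocorticoids and glucocorticoids induce, keeps the ubiquitin ligase Nedd4-2 (gene Nedd4l) from removing the channel from the membrane.

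Sgk1 rose in the males at all 3 days after cisplatin, from a baseline at which males held 2.37-fold less of it than females. The Day 2 rise passed in 2, the Day 3 rise in 5 and the baseline difference in 1 of 8 fits leaving out 1 mouse, and the Day 5 rise in all 8. In the females its group means lay between 127 and 144 CPM (counts scaled to the normalised size of each library) on all 4 days. Scnn1a rose 2.35-fold in the males by Day 5. At Day 3 all 3 channel subunits and Hsd11b2 were lower in males than in females, where 10.7% of all genes were, and of these 4 only Scnn1g passed in a single fit over all groups. Fxyd4 fell 2.81-fold in the females at Day 3, a call that 7 of 8 fits leaving out 1 mouse did not keep.

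Total counts ran from 16502107 to 35961325 per library, and the lowest count of any member in any library was 57, of Nr3c2. Some libraries stood apart. The mitochondrial genome took 42.5% to 79.8% of the counts in the 4 Day 5 males and 9.30% to 77.9% in the 4 Day 5 females, against at most 24% in the other 24 libraries. The mean length of the protein-coding genes counted, weighted by their counts, was 3494 to 3690 bases in 3 Day 0 libraries (male replicate 3, female replicates 2 and 3) and 4087 to 5097 bases in the other 29. The library labelled male Day 5 replicate 1 held 4153 counts of Xist beside 387 counts of Y-linked genes. In the other libraries labelled male Xist ran from 0 to 260 counts, with 242 in male Day 0 replicate 4. The 260 counts were in male Day 5 replicate 2, where 78.9% of all counts were mitochondrial. Female Day 5 replicate 2, at 77.9%, held 1323 counts of Xist. In the libraries labelled female Y-linked genes ran from 0 to 221 counts (221 in female Day 0 replicate 1). The calls of the members are given also without the 3 libraries of short genes or male Day 5 replicate 1 where these moved a value by over 1.5 times or ended a call. The Day 5 calls in males are given also with the mitochondrial genes left out, since no Day 5 male was free of a high mitochondrial share. A whole kidney was measured, so that fewer cells of a type and less RNA per cell cannot be told apart.

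**Figure D1:**
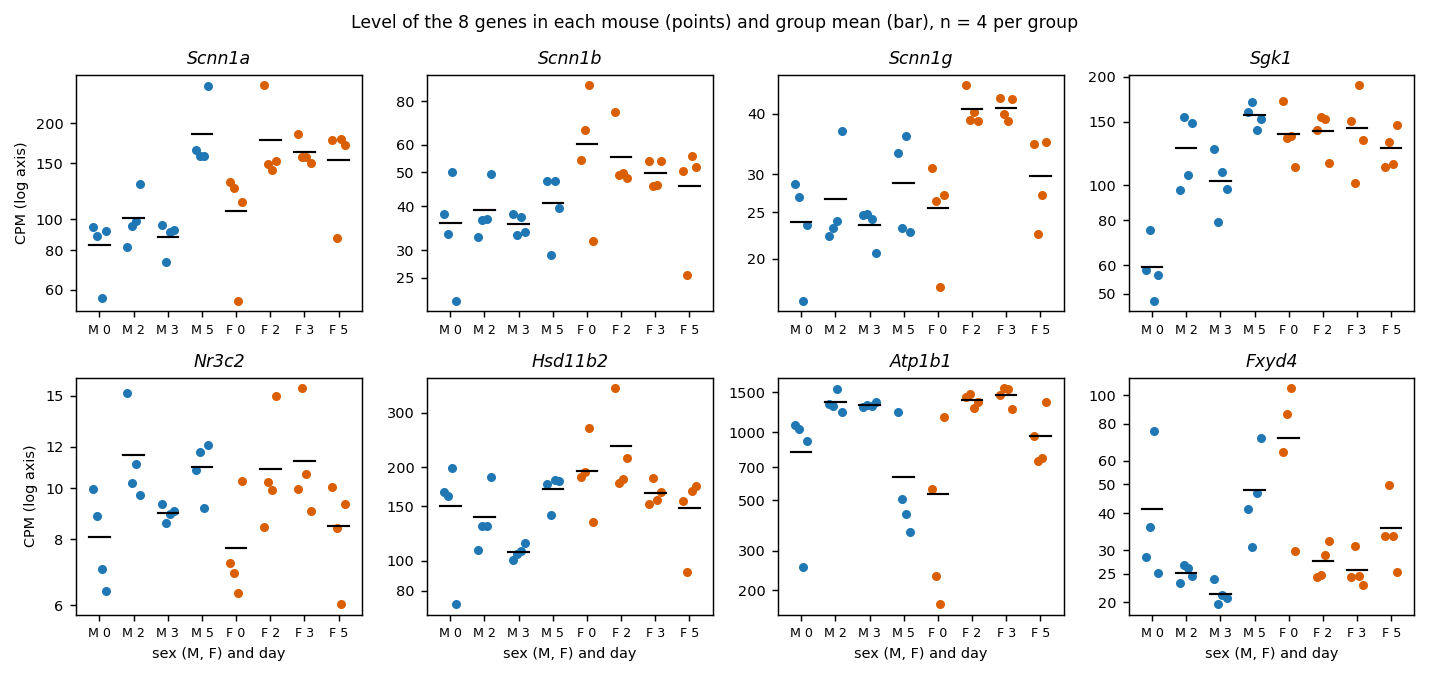
Level of each of the 8 genes in CPM (log axis) in every mouse, with males (M) in blue, females (F) in orange, the day after the letter and a black bar at the mean of 4 mice. Sgk1 lies between 47.9 and 75.0 CPM in the Day 0 males and at 79.3 or above in every other library, and Atp1b1 and Fxyd4 spread most widely within the Day 0 groups.

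A member was counted as changed where edgeR's quasi-likelihood test gave an adjusted p (Benjamini-Hochberg, over all genes tested) under 0.05. Among the males, 1 of 8 members passed at Day 2 (Sgk1), 1 at Day 3 (Sgk1) and 2 at Day 5 (Sgk1 and Scnn1a), all of them upward, where 3.16%, 24.5% and 19.2% of all genes passed in either direction and 1.81%, 11.4% and 8.98% upward. Among the females, none passed at Day 2, 1 at Day 3 (Fxyd4, downward) and none at Day 5, beside 1.93%, 5.54% (4.28% downward) and 0.258% of all genes. Males against females gave 1 lower member at Day 0 (Sgk1), none at Day 2, 4 lower at Day 3 (Scnn1a, Scnn1b, Scnn1g and Hsd11b2) and none at Day 5, beside 0.449% (0.212% lower), 1.47%, 21.3% (10.7% lower) and 0.276% of all genes. The change after cisplatin differed between the sexes for no member at Day 2 or Day 3, where 0% and 0.0114% of genes passed, and for Sgk1 at Day 5, where 0.243% did (0.0887% with the male change above the female). At Day 2 that test passed 0 of 17467 genes at the adjusted threshold and 738 (4.23%) at an unadjusted p under 0.05, and DESeq2's test passed 12 with a higher and 7 with a lower male change. At an unadjusted p under 0.05, 4 members passed in the Day 2 females (Scnn1a, Scnn1g, Atp1b1 and Fxyd4), 1 in the Day 5 females (Fxyd4), 4 between the sexes at Day 2 (the 3 channel subunits and Hsd11b2) and 0 between the sexes at Day 5, where 25.3%, 15.7%, 15% and 20.3% of all genes did. The study further required a log fold change over 1.5, of unstated base, which was read here as an absolute log2 fold change. With that requirement, only the Sgk1 difference at Day 5 remained of these calls, as did 0.231% of all genes for that difference.

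**Figure D2:**
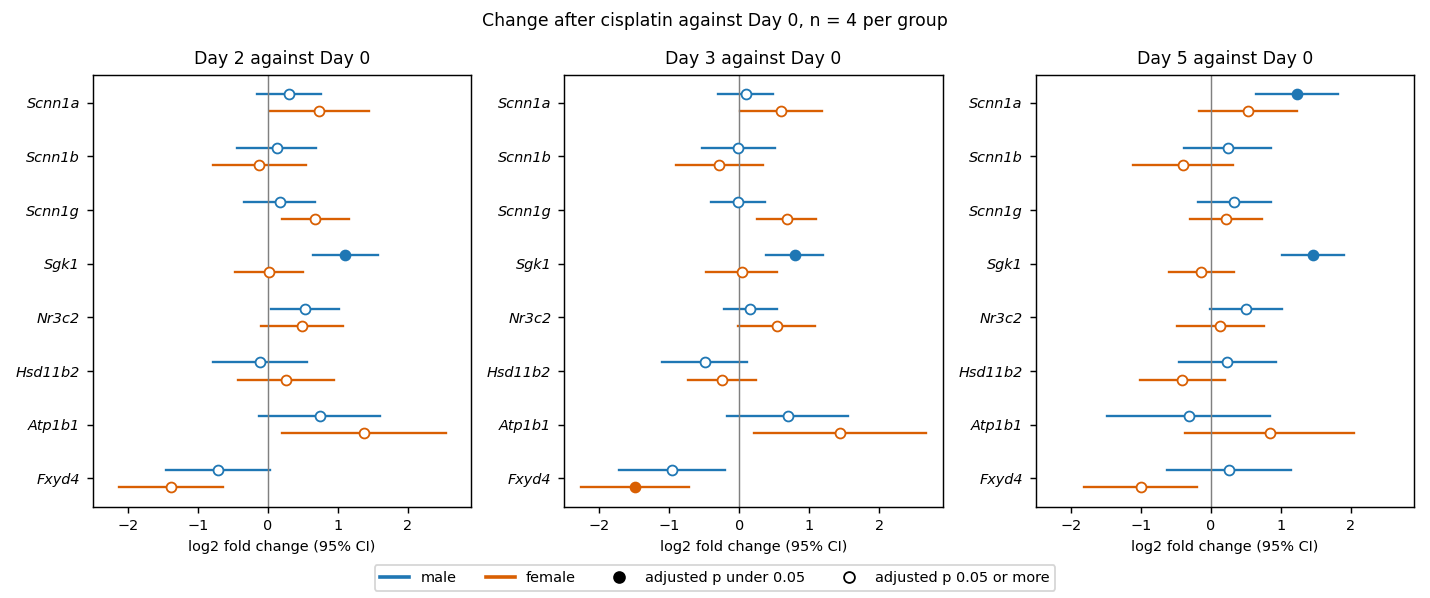
Log2 fold change of each gene against Day 0 of the same sex, with its 95% confidence interval, in males (blue) and females (orange) at Day 2, Day 3 and Day 5, and filled points where the adjusted p was under 0.05. Sgk1 in males is filled at all 3 days, Scnn1a in males at Day 5 and Fxyd4 in females at Day 3.

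Levels per kilobase of gene length (CPM per kb) put the same 2 members first and the same member last in every library. Atp1b1 held the first or second place in all 32 libraries, with group means of 173 to 474 CPM per kb, and Hsd11b2 the other of these places, with means of 58.1 to 127. Scnn1a (20.03 to 44.9) and Sgk1 (12.1 to 31.9) overlapped in their group means, as did Scnn1b (13.5 to 22.9), Fxyd4 (10.9 to 36.5) and Scnn1g (7.88 to 13.8), so that the order among these 5 neighbours changed between libraries. Nr3c2 was last in all 32 libraries, with group means of 1.19 to 1.78 CPM per kb. The receptor transcript was thus the scarcest of the set, and the transcript of the pump subunit the most abundant in most libraries.

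Nr3c2, the mineralocorticoid receptor, is a nuclear receptor on chromosome 8 (positions 76899442 to 77245012, forward strand, GRCm38). Its mean was 8.07 ± 1.65 CPM (SD, n = 4) in the Day 0 males and 11.6 ± 2.48, 8.98 ± 0.305 and 10.96 ± 1.29 at Day 2, Day 3 and Day 5. In the females it was 7.69 ± 1.80 at Day 0 and 10.9 ± 2.83, 11.3 ± 2.86 and 8.47 ± 1.75 thereafter. None of the differences passed the test, the nearest being that between males and females at Day 3 (log2 fold change -0.36, adjusted p = 0.128) and the male changes of 0.50 at Day 5 and 0.53 at Day 2 (adjusted p = 0.142 and 0.144). In the Day 3 females the change was 0.54 (adjusted p = 0.171), or 0.72 (adjusted p = 0.0335) without female Day 0 replicate 4. It was 0.35 (adjusted p = 0.356) without female Day 3 replicate 2 and 0.36 (adjusted p = 0.495) without the 3 Day 0 libraries of short genes. The male Day 2 change was 0.32 (adjusted p = 0.365) with the length trend removed. The 95% interval of the male Day 2 change ran from 0.05 to 1.02, and in each sex the range of Day 0 overlapped that of every later day.

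Hsd11b2, which inactivates glucocorticoids in the cells that respond to aldosterone, lies on chromosome 8 (105518755 to 105523988). At Day 0 it stood at 167, 161, 200 and 72.7 CPM in the males and at 186, 193, 267 and 134 in the females. At Day 3 the males held 101, 106, 107 and 114 CPM and the females 153, 184, 157 and 167. The Day 3 ranges of the sexes did not overlap, as for 10.8% of all genes lower in males, while those of Day 0 did. Males were 1.58-fold lower at Day 3 (log2 fold change -0.66, SE 0.0804, adjusted p = 0.000945), and no change against Day 0 passed in either sex. Male Day 0 replicate 4, at 72.7 CPM, decided the male Day 3 test, since the change was -0.49 (adjusted p = 0.2) with it and -0.72 (adjusted p = 0.00662) without it, and -0.31 (adjusted p = 0.352) without replicate 3. At Day 2 the female replicate 1 reached 359 CPM against 179 to 215 in the other 3, and the sexes differed by -0.77 (SE 0.248, adjusted p = 0.18), or by -0.50 (adjusted p = 0.165) without that replicate.

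Sgk1, serum- and glucocorticoid-regulated kinase 1, lies on chromosome 10 (21882184 to 21999903, forward strand, GRCm38). In the Day 0 males it measured 58.2, 75.0, 47.9 and 56.5 CPM. The 4 males of Day 2 measured 97.3, 155, 107 and 149 CPM, those of Day 3 126, 79.3, 109 and 97.9, and those of Day 5 160, 171, 142 and 153. Every male after cisplatin thus lay above every Day 0 male, and the lowest of the 12 was a Day 3 mouse. Of all genes, 12.3%, 20.9% and 11.2% lay higher without overlap at Day 2, Day 3 and Day 5. The rise was 2.16-fold at Day 2 (log2 fold change 1.11, SE 0.205, adjusted p = 0.038), 1.74-fold at Day 3 (0.80, SE 0.18, adjusted p = 0.0194) and 2.75-fold at Day 5 (1.46, SE 0.197, adjusted p = 0.00485).

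The Day 5 rise of Sgk1 passed with each of the 8 mice left out in turn, with adjusted p up to 0.0269, and was 1.47 (adjusted p = 0.00125) without the library labelled male Day 5 replicate 1 and 1.44 (adjusted p = 0.00514) with mitochondrial genes left out. The Day 3 rise passed in 5 of these 8 fits and the Day 2 rise in 2, with log2 fold changes of 0.69 to 0.92 and 0.999 to 1.24 and the same direction in every fit. For Day 2 the adjusted p was 0.126 without male Day 2 replicate 2, 0.109 without replicate 3, 0.0994 without male Day 0 replicate 2, 0.0901 without male Day 0 replicate 1, 0.0771 without male Day 2 replicate 4 and 0.057 without replicate 1. The replicate block ended both calls (adjusted p = 0.0868 at Day 2 and 0.0735 at Day 3), and removal of the gene length trend ended that of Day 2 (adjusted p = 0.0542). The Day 3 call was lost without male Day 3 replicate 1, replicate 3 or replicate 4 (adjusted p = 0.0597, 0.0668 and 0.0512).

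In the females Sgk1 measured 172, 135, 137 and 112 CPM at Day 0. The later females measured 142, 155, 153 and 116 CPM at Day 2, 151, 102, 189 and 134 at Day 3, and 113, 132, 115 and 147 at Day 5. The groups overlapped at every day, with log2 fold changes of 0.02 (95% interval -0.47 to 0.51), 0.03 (-0.47 to 0.54) and -0.13 (-0.60 to 0.33). The Day 0 males were 2.37-fold below the Day 0 females (log2 fold change -1.24, SE 0.208, adjusted p = 0.0453), and their ranges did not overlap, as for 2.74% of all genes lower in males. From Day 2 on the ranges of the sexes overlapped, and at Day 5 the male mean was 156 ± 12.02 CPM and the female mean 127 ± 16.1 (SD, n = 4 each, adjusted p = 0.282).

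Set against each other, the male change of Sgk1 at Day 5 exceeded the female change by 1.58 on the log2 scale (SE 0.27, adjusted p = 0.021), a difference that uses the same Day 0 mice as the sex difference at baseline. The same difference was 1.06 (SE 0.293, adjusted p = 0.866) at Day 2 and 0.73 (SE 0.296, adjusted p = 0.607) at Day 3. The Day 5 difference passed in 7 of 16 fits that each left out 1 mouse, with values of 1.45 to 1.71 and adjusted p up to 0.0815. It was lost without male Day 0 replicates 1 or 2, female Day 0 replicate 2, male Day 5 replicates 2, 3 or 4, or female Day 5 replicates 1, 3 or 4. It was 1.57 (adjusted p = 0.00358) without the library labelled male Day 5 replicate 1 and 1.53 (adjusted p = 0.128) without the 3 Day 0 libraries of short genes. The Day 0 sex difference passed in 1 of its 8 such fits, the one without female Day 0 replicate 4, with values of -1.38 to -1.13 and adjusted p of at most 0.234, and was -1.19 (adjusted p = 0.26) without the 3 libraries. It was -1.13 (adjusted p = 0.13) without female Day 0 replicate 1 and -1.21 (adjusted p = 0.102) without male Day 0 replicate 4. In all of these fits Sgk1 kept its direction.

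Sgk1 has several annotated start sites, and RefSeq's promoter windows (GRCm38.p6, 250 bases before to 50 after each start) hold 6 windows of the gene. A total of 6 of the 8 members matched the promoter table, with 11 windows. One of the Sgk1 windows contains the full palindrome that corticosteroid receptors bind, searched as AGAACA, any 3 bases and TGTTCT, which reads the same on both strands. The window, at chr10:21993640-21993939 on the forward strand, is shown because it is the only 1 of the 11 member windows with this motif, given in capitals:

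Sgk1: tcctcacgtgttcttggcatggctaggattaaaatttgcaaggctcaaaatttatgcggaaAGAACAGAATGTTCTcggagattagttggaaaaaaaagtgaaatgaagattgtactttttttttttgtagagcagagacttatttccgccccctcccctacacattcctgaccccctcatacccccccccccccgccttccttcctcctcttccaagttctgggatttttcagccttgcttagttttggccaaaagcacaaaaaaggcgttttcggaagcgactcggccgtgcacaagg

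The motif starts 189 bases before the annotated start, at 21993701 to 21993715. The searched pattern, with any 3 bases in its middle, occurs in 3 of all 32851 promoter windows (0.00913%), those of Sgk1, Acnat2 and Gm35041. A single arm of it, AGAACA or TGTTCT on either strand, occurs in 19% of windows, among them 3 of the 11 member windows. The counts are per gene, so which start was used in these kidneys was not measured, and a match in this window is a description of the sequence only.

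Over the 32 libraries, the gene whose log2 CPM followed Sgk1 most closely was Tsc22d3 (Pearson r = 0.798), which encodes the glucocorticoid-induced leucine zipper protein, followed by Cnksr1 (0.79) and Ephb2 (0.766), among 18220 genes. These correlations are descriptions over libraries that share sexes and days. Tsc22d3 stood at 30.3 ± 4.53 CPM (SD, n = 4) in the Day 0 males and rose to 70.7 at Day 2, 48.5 at Day 3 and 104 at Day 5 (log2 fold changes 1.23, 0.67 and 1.83, adjusted p = 0.0398, 0.0382 and 0.00943). In the Day 0 females it stood at 66.3 ± 20.6 CPM, with later means of 63.5 to 85.0 and log2 fold changes of 0.36, -0.07 and 0.21, none of which passed.

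Scnn1a, the alpha subunit without which the channel does not reach the membrane in number, lies on chromosome 6 (125320659 to 125344943). The Day 0 males held 94.6, 88.3, 56.4 and 91.8 CPM and the Day 5 males 165, 158, 158 and 263. All 4 Day 5 males lay above all 4 Day 0 males, as for 11.2% of all genes, with replicate 4 far above its group. The rise was 2.35-fold (log2 fold change 1.23, SE 0.26, adjusted p = 0.015), and it passed in all 8 fits that left out 1 mouse, with values of 1.01 without male Day 5 replicate 4 to 1.305 and adjusted p up to 0.0493. It was 1.302 (adjusted p = 0.00848) without the library labelled male Day 5 replicate 1 and 1.21 (adjusted p = 0.0166) with mitochondrial genes left out. At Day 2 and Day 3 the male means were 101 ± 19.8 and 88.1 ± 10.1 CPM against 82.8 ± 17.7 at Day 0 (adjusted p = 0.347 and 0.716).

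The female Scnn1a levels were 131, 125, 55.5 and 113 CPM at Day 0, 264, 149, 143 and 152 at Day 2, 185, 157, 157 and 150 at Day 3, and 178, 87.3, 179 and 171 at Day 5. The Day 2 and Day 3 females all lay above the Day 0 females, and 1 Day 5 female did not. Of all genes, 8.66% at Day 2 and 10.1% at Day 3 lay higher in the females without overlap. The log2 fold changes of 0.74, 0.60 and 0.53 (SE 0.321, 0.262 and 0.318) did not pass (adjusted p = 0.184, 0.158 and 0.436). Without female Day 2 replicate 1 the Day 2 change was 0.47, and without female Day 0 replicate 3 those of Day 3 and Day 5 were 0.39 and 0.33, while the fit over 8 groups passed Scnn1a at Day 2 (adjusted p = 0.038). The male and female changes at Day 5 differed by 0.68 (SE 0.425, adjusted p = 0.482).

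Scnn1b and Scnn1g, the beta and gamma subunits, lie side by side on chromosome 7 (121865038 to 121918514 and 121734479 to 121768475). In the males the mean of Scnn1b was 35.8 ± 11.9 CPM at Day 0 and 38.9 ± 7.35, 35.6 ± 2.47 and 40.8 ± 8.59 at Day 2, Day 3 and Day 5, and that of Scnn1g was 23.9 ± 5.41 at Day 0 and 26.6 ± 6.89, 23.6 ± 1.98 and 28.8 ± 6.81. No change passed. In the females Scnn1b went from 60.2 ± 23.7 at Day 0 to 55.4 ± 12.6, 49.9 ± 4.57 and 45.8 ± 13.8 (adjusted p = 0.828, 0.49 and 0.566), while Scnn1g stood at 30.8, 26.4, 17.5 and 27.2 CPM at Day 0 and at 38.7 to 45.8 in the 8 females of Day 2 and Day 3. Scnn1g did not overlap between Day 0 and either of these days, as for 8.66% and 10.1% of all genes higher in these females. Its log2 fold change of 0.68 missed the threshold at both days (SE 0.219 and 0.187, adjusted p = 0.0937 and 0.0578). DESeq2's test passed Scnn1g at both days, as did edgeR's without female Day 0 replicate 4 (0.71 at both, adjusted p = 0.0385 and 0.0208). Without the 3 Day 0 libraries of short genes the changes were 0.49 and 0.50 (adjusted p = 0.452 and 0.178). With the replicate block the adjusted p was 0.148 and 0.149. Of 9 alternatives, 2 passed Scnn1g at Day 2 and 3 at Day 3.

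**Figure D3:**
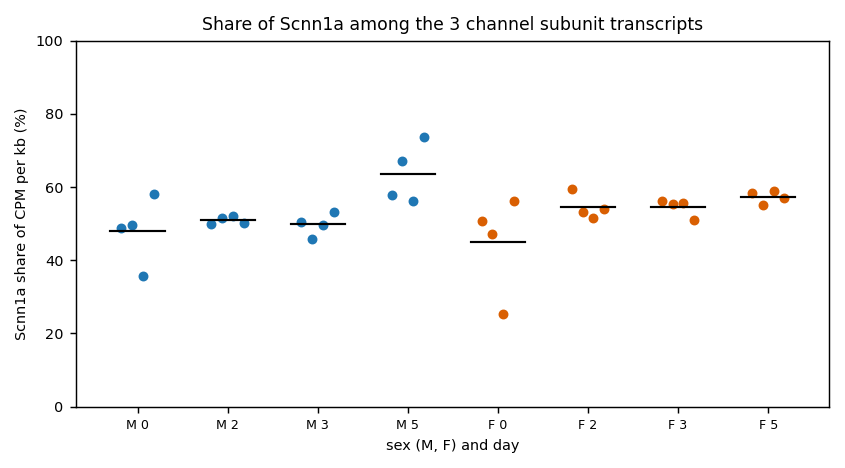
Share of Scnn1a among the 3 channel subunit transcripts in percent of their summed CPM per kb, for every mouse, with males (M) in blue, females (F) in orange and a bar at the mean of 4 mice. The Day 5 males have the highest mean, 63.7%, and the Day 0 groups the widest spread.

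The balance of the subunit transcripts was compared per length. Scnn1a made up 48.1% ± 9.21 (SD, n = 4) of the 3 transcripts in the Day 0 males and 63.7% ± 8.25 in the Day 5 males, and in the latter group its ratio to Scnn1g ran from 3.18 to 8.36 against 2.37 to 2.82 at Day 0. In the females the share was 44.9% ± 13.5 at Day 0 and 57.3% ± 1.70 at Day 5. The shares were lowest in male Day 0 replicate 3 (35.8%) and female Day 0 replicate 3 (25.4%), both libraries of short genes, against 48.8% to 58.1% in the other Day 0 males and 47.2% to 56.3% in the other Day 0 females, and no test was made of these shares. Scnn1a and Scnn1g varied together over the 32 libraries (Pearson r = 0.724, and 0.601 after the group means were removed), and Scnn1b followed Hsd11b2 (0.857 and 0.886) more than it followed either other subunit (0.304 with Scnn1a and 0.373 with Scnn1g). Scnn1b and Hsd11b2 both moved against the mean length of the genes counted (r = -0.502 and -0.465, and -0.795 and -0.686 after the group means were removed), and the part of that in their resemblance was not tested.

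**Figure D4:**
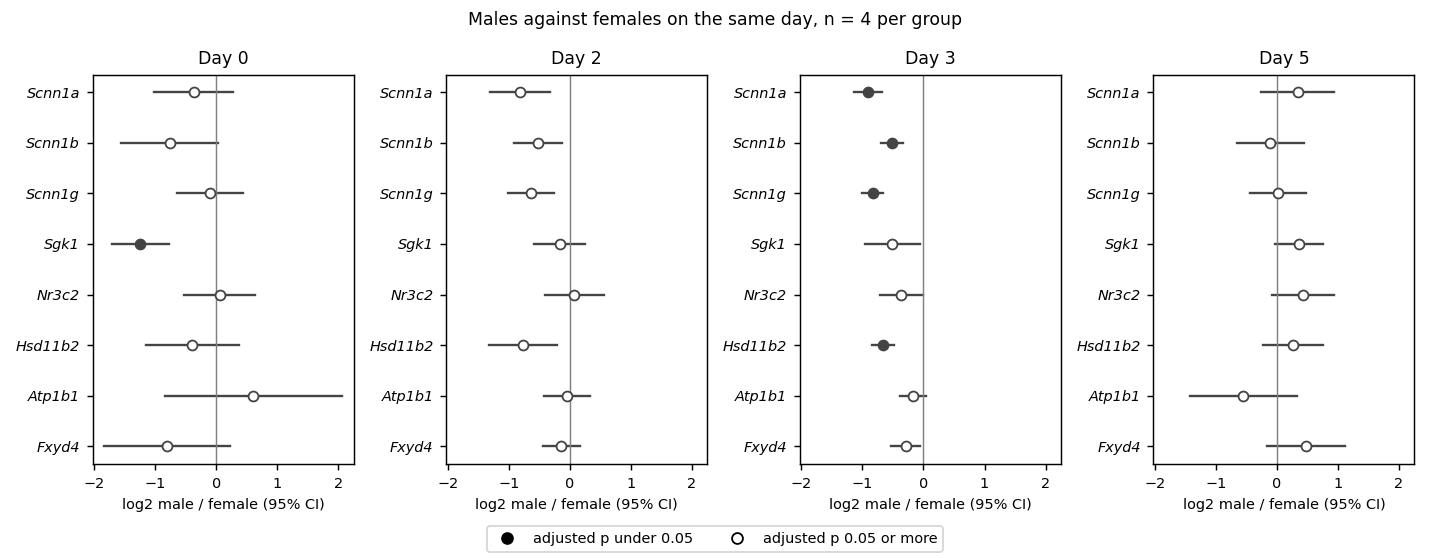
Log2 ratio of males to females for each gene on each day, with its 95% confidence interval and filled points where the adjusted p was under 0.05. Sgk1 is filled on the male-lower side at Day 0, and Scnn1a, Scnn1b, Scnn1g and Hsd11b2 at Day 3, where the intervals are narrow.

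Most calls between the sexes fell at Day 3. Scnn1a was at 95.7, 73.2, 91.0 and 92.4 CPM in the males and at 185, 157, 157 and 150 in the females, 1.88-fold lower in males (log2 fold change -0.91, SE 0.105, adjusted p = 0.000694). Scnn1b was at 38.1, 33.2, 37.3 and 33.7 CPM in the males and at 53.8, 45.7, 46.2 and 53.9 in the females, 1.43-fold lower (-0.52, SE 0.0815, adjusted p = 0.00293). Scnn1g was at 24.6, 24.8, 24.2 and 20.6 CPM in the males and at 43.1, 39.97, 38.7 and 42.9 in the females, 1.78-fold lower (-0.83, SE 0.0756, adjusted p = 0.000186). For each of these 3 genes and for Hsd11b2 every male lay below every female, whereas 10.8% of all genes were lower in males without overlap and 10.7% passed the test as lower. The remaining 4 members were lower in males too, by 0.17 to 0.51 on the log2 scale, and did not pass, though Sgk1 (-0.51, adjusted p = 0.0992) passed by DESeq2's test and with the replicate block (adjusted p = 0.0469 and 0.0205), and without female Day 3 replicate 2 (-0.64, adjusted p = 0.0209). These were 2 of 8 alternatives, with adjusted p up to 0.343, and 1 of 8 fits leaving out 1 mouse. The latter fits ran from -0.64 to -0.34, with adjusted p up to 0.23. The median over the 8 members was -0.51, against -0.02 over all 16673 genes tested.

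These 4 sex differences passed in all 8 fits that left out 1 mouse. In a single fit over all 8 groups, where all groups share 1 estimate of the spread, Scnn1g passed (adjusted p = 0.0366) and Scnn1a, Scnn1b and Hsd11b2 did not (0.097, 0.557 and 0.363), at log2 fold changes of -0.88, -0.49 and -0.63. None of the 4 had passed at Day 0, when males were lower by 0.11 to 0.76 on the log2 scale, and the change from Day 0 to Day 3 did not differ between the sexes for any of them (adjusted p of 0.561 for Scnn1g and 0.827 to 0.972 for the other 3). At Day 2 the differences were -0.82, -0.52, -0.64 and -0.77 (adjusted p of 0.1 to 0.205), and DESeq2's test passed Scnn1a and Scnn1g. Without male Day 2 replicate 4 Scnn1g passed (-0.83, adjusted p = 0.0121). At Day 5 the log2 ratios ran from -0.11 to 0.34, with none past the test.

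Markers of several nephron segments moved with the Day 3 sex difference. Of 9 tested markers of principal cells and the connecting tubule, 4 were lower in males and none higher: Aqp2, the vasopressin-regulated water channel (412 against 573 CPM, log2 fold change -0.50, adjusted p = 0.0128), Calb1, a cytosolic calcium carrier (-1.41, adjusted p = 0.0161), Aqp3 and Hoxd10. Their summed level was 825 to 984 CPM in the males and 1111 to 1320 in the females. Of 6 intercalated cell markers 3 were lower in males, as were 3 of 5 thick limb markers, and 4 of 8 proximal tubule markers were higher, with summed levels of 8827 to 11818 CPM in males and 4721 to 9248 in females. Of all genes, 10.7% were lower and 10.6% higher in males. The part of these markers in the difference of the channel genes was not tested. Of the genes named in this paragraph, Aqp3 and Hoxd10 were chosen after their values were seen.

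At Day 5 markers moved with the male rise of Scnn1a and Sgk1 as well. Principal cell and connecting tubule markers rose in 4 of 9 cases (Aqp2 from 478 to 1149 CPM, Aqp4 from 15.8 to 59.1, Elf5 from 4.28 to 20.9 and Gata3 from 13.6 to 31.2) and fell in none, with summed levels of 1413 to 2108 CPM against 832 to 1231 at Day 0. Intercalated cell markers rose in 4 of 6 cases. Of all genes, 8.98% rose and 10.2% fell. The summed proximal tubule markers were 805 to 6079 CPM against 9669 to 12686 at Day 0, and Slc34a1 and Slc22a6 fell. Leukocyte markers summed to 38.8 to 224 CPM against 34.2 to 104. Hsd11b2, Scnn1b and Scnn1g, which are used by the same cells as Scnn1a, had log2 fold changes of 0.24, 0.24 and 0.34 (adjusted p = 0.613, 0.556 and 0.323). With 1 mouse left out these ran from 0.00014 to 0.42 for Hsd11b2 and from 0.057 to 0.47 for Scnn1b, in both cases lowest without male Day 0 replicate 4 and highest without replicate 3, and from 0.20 (without male Day 0 replicate 3) to 0.43 for Scnn1g. The part of these shifts in the rises was not tested, and Elf5, Gata3, Slc34a1 and Slc22a6 were chosen after their values were seen.

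Atp1b1, the beta subunit that brings the sodium pump to the membrane, lies on chromosome 1 (164437109 to 164458355, reverse strand). The Day 0 levels spread widely, at 1078, 1038, 254 and 912 CPM in the males and 560, 232, 175 and 1168 in the females. The 8 males of Day 2 and Day 3 held 1229 to 1550 CPM and the 8 females 1268 to 1561. These 16 libraries all lay above every Day 0 library of either sex. Of all genes, 12.3% and 20.9% in males and 8.66% and 10.1% in females were higher without overlap at Day 2 and Day 3. The log2 fold changes of 0.74 and 0.69 in males (SE 0.384 and 0.381) and 1.38 and 1.44 in females (SE 0.533 and 0.545) did not pass (adjusted p = 0.233, 0.204, 0.142 and 0.117). Without male Day 0 replicate 3, the library of 254 CPM, the male changes were 0.42 (adjusted p = 0.0823) at Day 2 and 0.39 (adjusted p = 0.0124) at Day 3, of which the latter passed.

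At Day 5 Atp1b1 stood at 1226, 509, 436 and 361 CPM in the males and 966, 747, 773 and 1362 in the females. The high male was replicate 1, the library with 4153 Xist counts, and without it the sex difference at Day 5 was -1.02 (adjusted p = 0.0334) in place of -0.55 (adjusted p = 0.448). Over the 8 fits that left out 1 mouse this difference ran from -1.02 to -0.33, with adjusted p up to 0.739, and 1 passed. Female Day 0 replicate 4 decided the female tests in the same way. Without it Atp1b1 passed as higher at Day 2, Day 3 and Day 5 (log2 fold changes 2.11, 2.17 and 1.58, adjusted p = 0.00581, 0.00471 and 0.0373), and without the 3 libraries of short genes the values were 0.68, 0.75 and 0.14 (adjusted p = 0.515, 0.254 and 1).

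Fxyd4, the corticosteroid hormone-induced factor that associates with the pump in the collecting duct, lies on chromosome 6 (117933559 to 117937692, reverse strand). It measured 64.3, 86.6, 105 and 29.7 CPM in the Day 0 females and 24.3, 31.1, 24.4 and 22.9 in the Day 3 females. The groups overlapped through female Day 0 replicate 4. The fall was 2.81-fold at Day 3 (log2 fold change -1.49, SE 0.34, adjusted p = 0.0479), beside -1.38 at Day 2 (SE 0.338, adjusted p = 0.0537) and -1.002 at Day 5 (SE 0.364, adjusted p = 0.239). Without female Day 0 replicate 4 the Day 2 and Day 5 changes passed (-1.63 and -1.25, adjusted p = 0.00269 and 0.0182), and without the 3 libraries of short genes they were -0.78 and -0.41 (adjusted p = 0.3 and 1). In males the changes were -0.71, -0.96 and 0.26 (adjusted p = 0.187, 0.066 and 0.67), from 28.4, 35.96, 75.8 and 25.02 CPM at Day 0.

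Of the 8 fits that left out 1 mouse, the female Day 3 fall of Fxyd4 passed in the one without female Day 0 replicate 4 (adjusted p = 0.00165). It did not pass without female Day 0 replicates 1, 2 or 3 (adjusted p = 0.0932, 0.137 and 0.0755) or female Day 3 replicates 1 to 4 (0.168, 0.0686, 0.163 and 0.126), with values of -1.75 to -1.24 over the 8 fits. It was -0.88 (adjusted p = 0.196) without the 3 libraries of short genes and -1.19 (adjusted p = 0.0619) with a trend on gene length removed. In males at Day 3 it passed without male Day 0 replicate 3 (-0.48, adjusted p = 0.0183), the library of 75.8 CPM, and without replicate 4 (-1.13, adjusted p = 0.0313). Without replicate 3 the male changes at Day 2 and Day 5 were -0.25 and 0.75 (adjusted p = 0.26 and 0.0939).

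**Figure D5:**
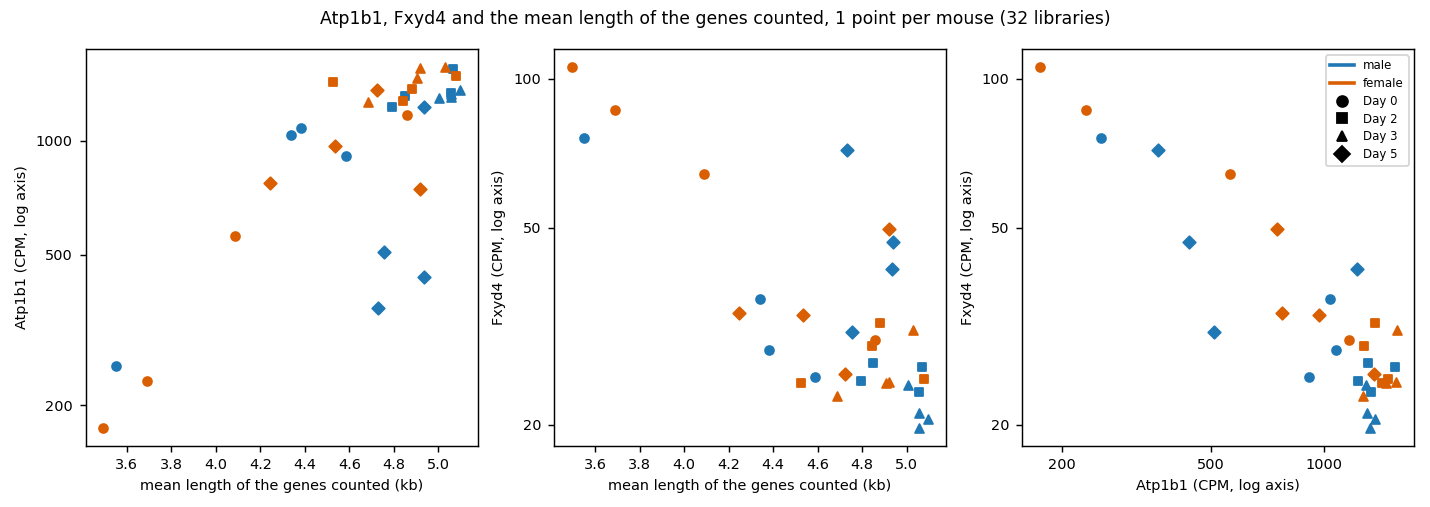
Atp1b1 and Fxyd4 in CPM (log axis) against the count-weighted mean length of the protein-coding genes of each library in kilobases, and against each other, with 1 point per mouse, colours for sex and shapes for day. The 3 Day 0 libraries below 3.7 kb have the lowest Atp1b1 and the highest Fxyd4 of all 32.

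Atp1b1 and Fxyd4 ran opposite to each other over the 32 libraries (Pearson r of log2 CPM -0.904, and -0.813 after the group means were removed). Both also followed the mean length of the genes counted, Atp1b1 upward (0.783 and 0.797) and Fxyd4 downward (-0.753 and -0.662), and a length of 3081 bases for Atp1b1 and 1957 for Fxyd4 is shorter than that mean in every library. With a trend on gene length removed, the Day 2 and Day 3 changes of Atp1b1 were 0.82 and 0.81 in males and 1.39 and 1.475 in females. Those of Fxyd4 were -0.41 and -0.59 in males and -1.09 and -1.19 in females, and none of these passed. Beyond these fits and those without the 3 libraries of short genes, the part of library composition in their changes was not tested. The corresponding values for Sgk1 were 0.236 and -0.0413 and for Scnn1a 0.258 and 0.0894. The genes most like Atp1b1 were Chdh (0.976), Isoc1 (0.964) and Plekhh1 (0.963), and those most like Fxyd4 were Ccl27a (0.93), Stx4a (0.916) and Pick1 (0.911).

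The other pump genes were read beside them. Of 8 such genes, 1 fell at Day 3 in the males and 1 at Day 2 and 2 at Day 3 in the females, and none rose on these days. Of all genes, 13.1% fell in the Day 3 males, 1.16% in the Day 2 females and 4.28% in the Day 3 females. Fxyd2, the gamma subunit of the pump, went from 3006 to 1084 CPM in the males at Day 3 (log2 fold change -1.48, adjusted p = 0.011) and from 4178 to 1108 in the females (-1.93, adjusted p = 0.0465). Fxyd1, phospholemman, fell in the females at Day 2 and Day 3 (-2.16 and -2.06, adjusted p = 0.0498 and 0.048). In the Day 3 females no gene of the table passed with the replicate block, without the 3 libraries of short genes or with the length trend removed in edgeR's test, where 4236, 3436 and 5027 genes had an unadjusted p under 0.05, so that every call named in that comparison is lost under each of these.

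Of 12 genes that cleave, protect or turn over the channel or repress and release its transcription, 2 rose in the males at Day 2, 4 rose and 1 fell at Day 3, and 2 rose and 1 fell at Day 5, and in the females none passed in either direction. Of all genes, 3.16%, 24.5% and 19.2% passed in males and 1.93%, 5.54% and 0.258% in females, and no gene of this list passed the test of the difference between the sexes. Spint2, an inhibitor of channel-activating proteases, fell in the Day 3 males (log2 fold change -0.76, adjusted p = 0.0129) and had -0.72 in the Day 3 females (adjusted p = 0.0885). Dot1l, the histone methyltransferase that represses Scnn1a, and Cnksr3, an aldosterone-induced scaffold, rose in the Day 3 males (0.75 and 0.52, adjusted p = 0.0355 and 0.0436). Nedd4l held 67.9 to 90.6 CPM as the mean of every group, with changes of 0.11 to 0.34 against Day 0 and none past the test. Prss8, the channel-activating protease prostasin, was chosen after its values were seen and fell at Day 5 in the males from 412 to 118 CPM (-1.75, adjusted p = 0.0279).

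Of 8 kinase-branch genes around Sgk1, 3 rose in the males at Day 3 and none passed against Day 0 at the other days or in the females, where 11.4% of all genes rose in the Day 3 males and 5.54% passed in the Day 3 females. None of the 8 passed the test of the difference between the sexes. Among them were Rictor, the core of the complex that phosphorylates Sgk1 (13.1 to 25.6 CPM, log2 fold change 0.96, adjusted p = 0.00352), and Pdpk1, its activating kinase (0.58, adjusted p = 0.00846). In the female Day 3 mice Rictor and Pdpk1 had 0.72 and 0.84 (adjusted p = 0.204 and 0.114). Among 6 genes of the WNK and KLHL3 branch, Oxsr1 rose in the Day 3 males (0.59, adjusted p = 0.0472), when 11.4% of all genes rose. Of 5 tested potassium secretion channels 2 rose in the Day 5 males, where 8.98% of all genes did, and none passed at Day 2 or Day 3 or in the females.

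Of 8 partners of the corticosteroid receptors, 1 fell in the males at Day 2, 2 rose and 3 fell at Day 3, and 1 rose and 1 fell at Day 5. In the females 1 rose at each day and 1 fell at Day 3. Of all genes, 3.16%, 24.5% and 19.2% passed in males and 1.93%, 5.54% and 0.258% in females on these days. Fkbp5, a glucocorticoid-induced chaperone, rose in the females from 27.5 ± 8.50 CPM (SD, n = 4) at Day 0 to 133 at Day 2, 163 at Day 3 and 171 at Day 5 (log2 fold changes 2.28, 2.56 and 2.63, adjusted p = 0.0128, 0.0465 and 0.0135). In the males it stood at 68.4 ± 15.8 CPM at Day 0 and 97.8 to 121 later, with changes of 0.53 to 0.82, none past the test. Zbtb16, a glucocorticoid-induced zinc finger factor, had means of 1.03 CPM in the Day 0 males and 1.18 in the Day 0 females and of 12.4 to 18.2 thereafter. It passed in the males at Day 3 and Day 5 (3.81 and 3.69, adjusted p = 0.0407 and 0.0348). Fkbp4, the chaperone of the receptor complex, fell in the males at all 3 days (-0.79, -0.92 and -0.84, adjusted p = 0.0402, 0.00797 and 0.0354) and in the females at Day 3 (-1.19, adjusted p = 0.0465). The Day 3 calls of Fkbp5 and Fkbp4 in females are among those lost with the block, without the 3 libraries and with the length trend removed. Its partner Ptges3 fell in the Day 3 males (-0.84, adjusted p = 0.0244). The male and female changes at Day 5 differed by -2.04 on the log2 scale for Fkbp5 (adjusted p = 0.118), by 1.60 for Tsc22d3 (adjusted p = 0.0993) and by 1.58 for Sgk1, of which only Sgk1 passed that test.

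Genes of the adrenal cortex, which makes aldosterone and corticosterone, were present in some libraries. In the males the summed level of 6 markers ran from 0.730 to 17.6 CPM at Day 0 and from 10.1 to 487 at Day 2. It ran from 3.76 to 61.9 in the Day 3 males and from 31.6 to 161 in the Day 5 males. In the females it ran from 3.02 to 324 CPM at Day 0 and from 2.87 to 4.26 at Day 2. It ran from 25.2 to 2047 in the Day 3 females and from 509 to 1366 in the Day 5 females. Cyp11b2, the aldosterone synthase, had 0 counts in 2 or more libraries of every group and group means of at most 0.292 CPM. In the Day 5 males 4 of 5 tested markers rose, and in the Day 5 females none passed, where 8.98% of all genes rose in the former and 0.258% passed in the latter. The part of adrenal tissue in the levels of the members was not tested.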

How the data were processed

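Total RNA of 32 whole mouse kidneys was sequenced in paired-end reads of 150 bp. The counts per gene were made by the authors (HTSeq, per the labels' processing notes, versions not given in the sources used here) and deposited as whole numbers together with FPKM values, which the authors normalised to gene length and depth. The study's methods name GRCm38 and the labels' notes GRCm39. Of 54409 genes matched to GENCODE's GRCm38 annotation, 53499 had the same start and end, all 8 members among them.

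Counts were tested per pair of groups with edgeR 4.0.16 (R 4.3.3, limma 3.58.1), using TMM normalisation, filterByExpr and a robust quasi-likelihood fit, with Benjamini-Hochberg adjustment over all genes tested. The sexes' changes were compared by an interaction in a fit of 4 groups. Correlations used log2 CPM with a prior count of 2 over 18220 genes. The scripts were tested on simulated data: for Day 2 against Day 0 in males, with 16051 genes, edgeR called 134 of 200 changed genes (67%), and 6 unchanged ones. DESeq2's test called 158 of the 200 (79%), and 55 unchanged ones. The planted log2 changes were 1.5 or 2 in either direction, so that the share called at smaller changes was not measured. Total counts ran from 16502107 to 35961325, of which up to 79.8% were mitochondrial, which left fewer reads on the members in the Day 5 libraries of high mitochondrial share, and no 2 libraries were identical.

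Genes of the lists were named where they had the largest mean change over Day 2 and Day 3 among those passing at least once, up to 4 per list, together with Nedd4l, Aqp2 and the 3 genes most like each member. Cyp11b2 was named outside this rule, as were the genes marked as chosen after their values were seen. Some list genes are counted but not reported here by name. The members and lists were chosen with earlier results of these data known. Mouse numbers were not taken as pairs, since in no comparison of 2 groups did all 4 same-numbered pairs correlate above 0.1. This rule cannot exclude a batch shared by number. Between the sexes at Day 0, 3 of the 4 pairs correlated above 0.1 (highest r 0.481). With the replicate block 131 genes passed there as higher and 79 as lower in males, against 72 in either direction without it. Alternatives were DESeq2 1.42.0, its size factors, other filters, 1 fit over 8 groups, a replicate block, deposited FPKM for levels, mitochondrial genes left out and each mouse left out in turn. The removal of 3 Day 0 libraries and of a trend on gene length was chosen after seeing the data.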

Additional observations from a re-analysis of the deposited data

Results flagged for a closer look

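In 11 of 64 sets of 4 mice (8 genes in 8 groups), 1 mouse lay so far from the other 3 that its gap to the nearest of them, as a share of the group's range, passed Dixon's 95% limit. Chance flags about 1 in 20 such groups. For Scnn1a these were male Day 0 replicate 3 (0.867), female Day 2 replicate 1 (0.898), male Day 5 replicate 4 (0.916) and female Day 5 replicate 2 (0.933). For Scnn1b they were female Day 2 replicate 1 (0.93) and female Day 5 replicate 2 (0.87), and for Scnn1g male Day 2 replicate 4 (0.855) and male Day 3 replicate 4 (0.878). For Hsd11b2 they were male Day 5 replicate 2 (0.906) and female Day 5 replicate 2 (0.831), and for Atp1b1 male Day 0 replicate 3 (0.884). Female Day 5 replicate 2 stood low for Scnn1a, Scnn1b and Hsd11b2, and female Day 2 replicate 1 high for Scnn1a and Scnn1b.

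The change of Sgk1 from Day 0 to Day 5 differed between the sexes, by 1.58 on the log2 scale (males minus females, edgeR's interaction test, adjusted p = 0.021). The adjusted p was 0.00358 to 0.0815 over the fits that each left out 1 of the 16 mice.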

How the results depend on the processing

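The number of members passing the test changed as follows. Adding the fold minimum left 0 in the males at Day 2, Day 3 and Day 5, in the females at Day 3 and between the sexes at Day 0 and Day 3. DESeq2's test passed 2 in males at Day 3, 3 in females at Day 2 and at Day 3 (Scnn1g, Atp1b1 and Fxyd4), and 2 between the sexes at Day 2 and 5 at Day 3, with Sgk1 added there. Without a filter 1 passed in females at Day 2. At least 10 counts per library gave 1 there and 2 in females at Day 3. A single fit over 8 groups gave 2 in males at Day 3, 4 in females at Day 2, 3 at Day 3 and 1 at Day 5, and 1 between the sexes at Day 3. DESeq2's size factors gave 0 in females at Day 3. The replicate block gave 0 in males at Day 2 and Day 3 (Sgk1 adjusted p = 0.0868 and 0.0735) and in females at Day 3, and added Sgk1 between the sexes at Day 3. It lowered the male calls over all genes from 507 to 5 at Day 2 and from 3901 to 90 at Day 3, and the female ones from 320 to 52 at Day 2 and from 945 to 0 at Day 3. Without the 3 Day 0 libraries 3 passed in males at Day 3 and 0 in females at Day 3, between the sexes at Day 0 and in the Day 5 difference. Calls over all genes in females at Day 3 were 0 without these libraries and with the length trend removed. With the length trend removed 0 passed in males at Day 2 and in females at Day 3.

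Leaving out 1 mouse gave 0 to 1 members in males at Day 2, 0 to 3 at Day 3 and 2 at Day 5. In females it gave 0 to 3, 0 to 4 and 0 to 2, and between the sexes 0 to 1, 0 to 1, 4 to 5 and 0 to 1 from Day 0 to Day 5. The Day 5 sex difference had 0 to 1.

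Log2 fold changes that turned direction belonged to genes that did not pass the test. Without the 3 Day 0 libraries they were Hsd11b2 0.046 (males, Day 2), Scnn1a -0.053 and Scnn1b 0.20 (males, Day 3), Scnn1b 0.36 and Sgk1 -0.017 (females, Day 2), Scnn1b 0.20 and Hsd11b2 0.037 (females, Day 3), Scnn1b 0.082 and Nr3c2 -0.063 (females, Day 5), and Nr3c2 -0.084 (sexes, Day 0). With the length trend removed they were Hsd11b2 0.19 (males, Day 2), Scnn1b 0.18, Scnn1g 0.11 and Nr3c2 -0.081 (males, Day 3), Sgk1 -0.14 (females, Day 2), and Sgk1 -0.13 and Hsd11b2 0.051 (females, Day 3). In males at Day 3, Scnn1b was 0.025 without a filter, 0.011 with at least 10 counts and 0.049 with the replicate block, and Scnn1g 0.012, 0.012 and 0.0073. Between the sexes at Day 5 Scnn1g was -0.045 without a filter, -0.051 in the fit over 8 groups and -0.0023 with the block.

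With 1 mouse left out, the ranges in males were -0.33 to 0.046 for Hsd11b2, -0.046 to 0.32 for Scnn1b and -0.042 to 0.25 for Scnn1g at Day 2, -0.053 to 0.17 for Scnn1a, -0.19 to 0.20 for Scnn1b and -0.16 to 0.065 for Scnn1g at Day 3, and -0.014 to 0.75 for Fxyd4 at Day 5. In females they were -0.025 to 0.47 for Hsd11b2, -0.33 to 0.15 for Scnn1b and -0.068 to 0.16 for Sgk1 at Day 2, and -0.12 to 0.17 for Sgk1 at Day 3. Between the sexes they were -0.061 to 0.23 for Nr3c2 and -0.25 to 0.031 for Scnn1g at Day 0, -0.12 to 0.0043 for Atp1b1 and -0.087 to 0.26 for Nr3c2 at Day 2, and -0.29 to 0.020 for Scnn1b and -0.12 to 0.11 for Scnn1g at Day 5. The causes were not tested.

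The levels per kb moved by less than the spread between mice when the deposited FPKM values were used, in 64 of 64 cases. The lowest count of each member fell in a Day 5 library of high mitochondrial share, 57 for Nr3c2 in male replicate 3 and 726 for Scnn1a in female replicate 2.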
